A study of Drosophila melanogaster with 46 samples.

Results

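The regions described here are sites of the Drosophila melanogaster genome at which the Polycomb proteins PSC and Su(z)12 were both bound in eye discs and which lay at the end of a gene. A region was a PSC peak of the merged replicates on a chromosome arm that shared at least 1 bp with a merged Su(z)12 peak and whose summit, the position of highest signal, lay within 1000 bp of either end of an annotated gene. Of 5999 PSC peaks on the 6 arms, 1525 overlapped a Su(z)12 peak, and 893 of these (58.6%) met the rule. An end of 1361 genes lay within 1000 bp of such a summit, which is 7.70% of the 17684 annotated genes. The regions were chosen by their peak overlap and by the position of their summits, which are therefore given as a description, without a test. The expression values were not used in that choice.

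PSC belongs to Polycomb repressive complex 1 (PRC1), which ubiquitylates histone H2A and compacts chromatin. Su(z)12 belongs to PRC2, the complex that places methyl groups on lysine 27 of histone H3. In flies both complexes are recruited to Polycomb response elements and keep developmental regulators, among them the Hox genes, silent outside the cells that use them. Pc is the PRC1 subunit that binds the methylated histone, and Ph, encoded by the neighbouring duplicate genes ph-p and ph-d, is the subunit whose SAM domain joins PRC1 complexes together.

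Binding was measured by ChIP-seq in eye discs, the epithelium of the larva from which eye and antenna develop, from wandering L3 larvae of the strain W1118 Oregon-R. There were 2 replicates for each protein, each from about 500 discs. Expression was measured by RNA-seq of polyadenylated RNA from about 150 discs per replicate. The groups were discs mutant for Pc (labelled PcXT109 FRT2A, 2 replicates), discs with RNA interference against ph from the cross BL 64095 x VDRC50028 (4 replicates), and discs with RNA interference against white from the cross BL 64095 x BL33623 (4 replicates). The labels name neither the driver in the shared parent BL 64095 nor the control of the Pc mutant, and they do not say which share of the Pc mutant tissue had lost the gene. They also do not say whether replicates came from separate crosses, so the p-values measure the spread between these samples.

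The expression data were 2 tables of fold changes with no values per sample, so each gene is given by its mean normalised count, its log2 fold change with standard error (SE) and its adjusted p. A gene is called higher or lower at an adjusted p under 0.05. In the authors' deposited tables Pc was lower by 1.64 ± 0.41 (SE) on the log2 scale in the Pc mutant, and ph-p and ph-d were lower by 0.80 ± 0.04 and 0.66 ± 0.05 in ph RNAi; reads of these near-identical duplicates may be split between them. The control target w was higher in ph RNAi by 0.79 ± 0.12 per the authors' deposited table. All 9 markers of the eye-antennal disc were present, with mean normalised counts of 1869 to 6746 in the Pc table and of 2478 to 8306 in the ph table. Of these markers, 9 were called lower in the Pc mutant, and in ph RNAi 8 were called lower and 1 higher.

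Most summits lay close to a gene end. The median distance from the PSC summit to the nearest gene end was 94 bp, with quartiles of 49 and 260 bp, although the rule allowed 1000 bp. The summit was within 100 bp of a gene end in 463 regions (51.8%), within 200 bp in 619 (69.3%) and within 500 bp in 785 (87.9%). It lay outside every annotated gene in 662 regions and inside a gene in 231 (25.9%). The 2470 PSC peaks near gene ends without Su(z)12 had a smaller median distance, 69 bp, with 58.6% of summits within 100 bp of a gene end and 48.1% inside a gene. In 324 regions the summit stood in a gap between genes with a gene end within 1000 bp on both sides. The annotation used gives no strand, so starts and ends of genes were not told apart.

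**Figure D1:**
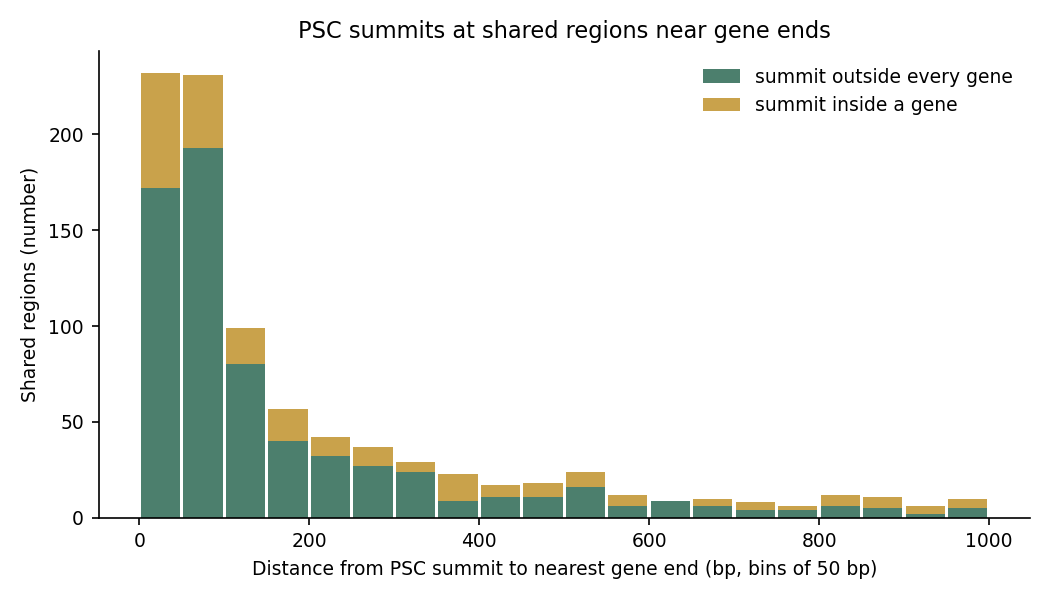
Distance from the PSC summit to the nearest annotated gene end (x axis, bp, bins of 50 bp) against the number of shared regions (y axis), with bars split into summits outside every gene and inside a gene. The first bins hold most of the 893 regions, with 463 within 100 bp and 785 within 500 bp.

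The regions were short and the summits of both proteins nearly coincided. The median PSC peak was 401 bp wide, with quartiles of 307 and 646 bp and a range of 200 to 8366 bp. Fold enrichments and scores of peaks are the authors' own, as MACS2 writes them. The PSC fold had a median of 2.57 and ranged from 1.41 to 4.89, and the Su(z)12 fold of the best overlapping peak had a median of 2.21. The summits of the proteins were a median of 21 bp apart, and within 100 bp of each other in 769 regions. PSC peaks near gene ends without Su(z)12 were narrower (median 291.5 bp) and had a lower fold (median 1.95). The 334 shared peaks inside genes and over 1000 bp from their ends were a median of 474.5 bp wide, with a median fold of 2.21.

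Replicate support differed between the proteins. The PSC peak overlapped a peak in both PSC replicate lists in 703 regions, in 1 list in 139 and in neither in 51. For Su(z)12 the numbers were 418, 268 and 207. Both proteins were found in both replicates at 369 regions (41.3%), counting all Su(z)12 peaks that overlap a region together.

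The region with the highest merged PSC fold was at Map205, a microtubule-associated protein gene, on 3R at chr3R:32067877-32069928 (dm6). Its PSC fold was 4.89 in the merged list, 7.25 in replicate 1 and 7.95 in replicate 2, and its Su(z)12 fold was 4.16, 4.99 and 4.55. A region at Neu2 (chr3L:21483549-21484547, dm6) had the highest Su(z)12 fold of all 893, 4.78 in the merged list, 6.16 in replicate 1 and 5.89 in replicate 2. The widest region, 8366 bp at chrX:2133749-2142114 (dm6), had its summit 777 bp from an end of D2hgdh, which encodes a 2-hydroxyglutarate dehydrogenase, with a PSC fold of 4.55. This region also covered the end of ph-p at position 2138371. A separate region 3825 bp wide at chrX:2122595-2126419 (dm6) had its summit 526 bp from the other end of ph-p. The other regions among the 10 highest lay at the tRNA gene tRNA:Lys-TTT-2-1 with 7SLRNA:CR42652, at brp with CG1888, at CG12769, at Cndp2, at CG10602 with mRpL13 and tup, at Clamp with lncRNA:CR44809, and at mthl8. In all 10 the PSC summit was outside every gene, and the PSC peak was found in both replicates. Su(z)12 was found in both replicates at 9 of them.

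**Figure D2:**
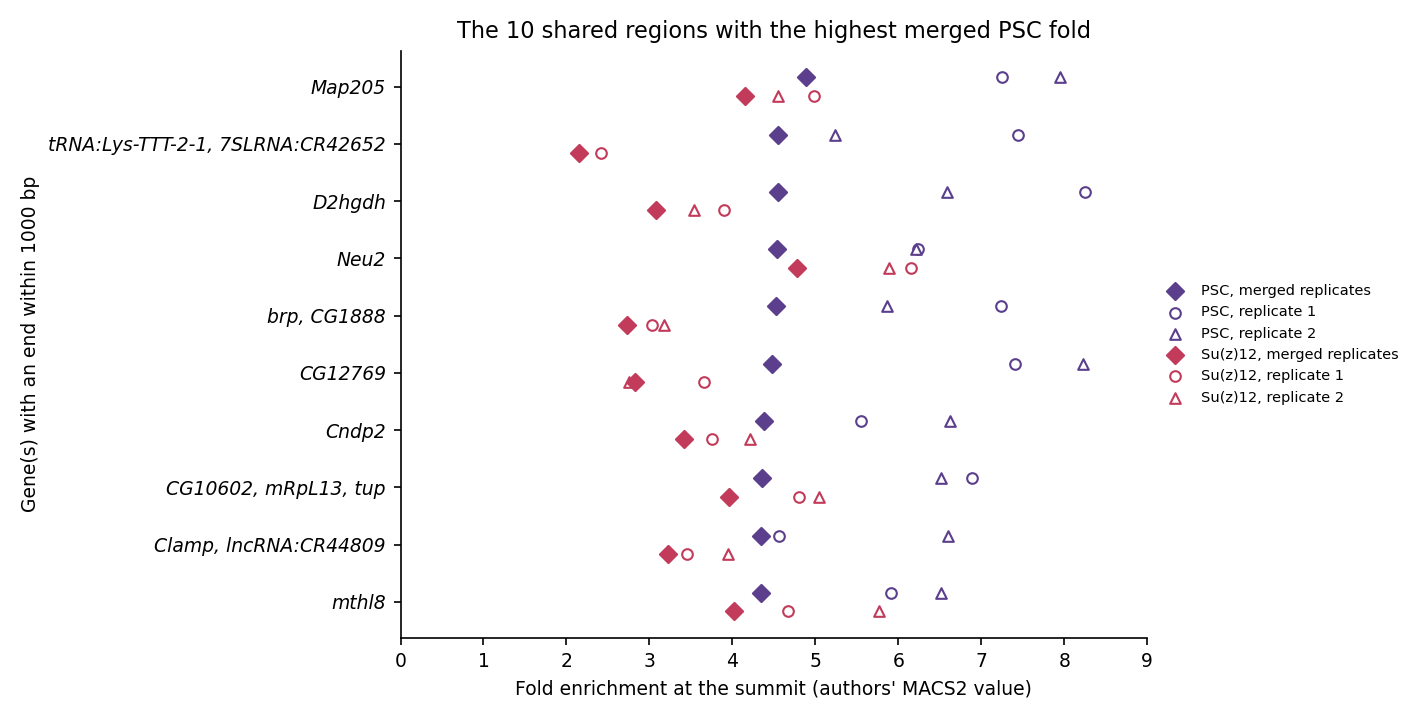
The authors' fold enrichment (x axis) of PSC and Su(z)12 in the merged list and in each replicate list, for the 10 regions with the highest merged PSC fold (y axis, named by the genes with an end within 1000 bp). Merged PSC folds span 4.35 to 4.89, replicate PSC folds lie above them, and a Su(z)12 peak is missing in replicate 2 at tRNA:Lys-TTT-2-1.

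The limit of 1000 bp cut through a continuum. Just inside it were regions at CG18747 (1000 bp, PSC fold 2.05), at otp (987 bp, fold 2.18) and at B-H2 (986 bp, fold 2.76). Just outside it were shared peaks nearest to lncRNA:CR45887 (1004 bp, fold 1.49), to Psc (1006 bp, fold 1.94) and to lncRNA:bxd (1009 bp, fold 2.18).

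A single gene end was near 444 of the summits, and 449 had ends of several genes. Of the genes, 1161 were protein-coding (8.34% of the 13922 annotated), 102 were long non-coding RNAs (5.21% of 1959), 31 were snoRNAs (11.5% of 269) and 17 were tRNAs (5.86% of 290). There were 99 genes with more than 1 region, and 59 genes had a region near each of their ends. The genes had a median length of 3777 bp, against 1710 bp over all annotated genes. By arm there were 217 regions on 3R, 188 on 2R, 159 on 2L, 154 on 3L, 130 on X and 45 on chromosome 4.

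In the Pc mutant most genes at the regions did not pass the test. Those that passed with large increases included Hox genes and the transcription factor genes cad, Kr and Sox15. Of the 1361 genes, 1115 were in the authors' deposited table and 1077 had an adjusted p. The 246 genes without a value were 46 protein-coding and 200 non-coding genes, so the expression results concern protein-coding genes. Of the 1077 genes, 55 (5.11%) were higher per the authors' deposited table, against 3.64% of all 11297 genes tested, and 78 (7.24%) were lower, against 6.24%. The median log2 fold change of the genes at the regions was 0.004 per the authors' deposited table, against 0.02 over all genes. At least 2-fold higher were 24 genes (2.23%, against 1.5% of all genes) and at least 2-fold lower 12 (1.11%, against 2.43%), from the authors' deposited table. The genes at the regions were more highly expressed, with a median mean count of 1723 against 555 over all genes, which bears on what a test can call. The share higher was above that of all genes only at mean counts of 50 to 1000. Recentred on the ribosomal protein genes, the split of calls moved from 41.4% higher to 25.3% higher.

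The Hox genes specify segment identity along the body axis and are the textbook targets of Polycomb repression. A region lay at 7 of the 8, all but Abd-B. Of the 7, 5 rose per the authors' deposited Pc table, and the median log2 fold change was 2.53. Over all 8 Hox genes 6 were higher and 0 lower, with a median of 3.07, so Abd-B, which had no region, was also higher. Ubx, which specifies the haltere segment, rose by 5.97 ± 0.43 (SE, adjusted p 3.52e-41, mean count 399) per the authors' deposited table. The abdominal gene abd-A rose by 5.78 ± 0.53 (adjusted p 1.01e-24) in the same authors' deposited table. Antp, the thoracic gene, rose by 3.60 ± 0.47 (adjusted p 4.47e-12), pb by 2.53 ± 0.40 (adjusted p 4.46e-08) and Scr by 2.40 ± 0.40 (adjusted p 1.74e-07) per the authors' deposited table. The head genes Dfd, at -0.27 ± 0.15 (adjusted p 0.348), and lab, at -0.48 ± 0.30 (adjusted p 0.422), did not pass in the authors' deposited table.

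The Hox regions had merged PSC folds of 1.45 to 2.66, where the median over all regions was 2.57. The region 66 bp from an end of Ubx (chr3R:16734139-16734767, dm6) had a PSC fold of 1.85 in the merged list, 2.33 in replicate 1 and 2.26 in replicate 2. The region at abd-A (chr3R:16829721-16830828) had 2.55, 4.82 and 3.27, and also touched the ends of MSAmiP and lncRNA:iab8. The region at pb (chr3R:6741132-6743502) was 2371 bp wide with PSC folds of 2.66, 5.50 and 3.02. The 3 regions at Antp had merged PSC folds of 1.45, 1.96 and 1.46; 1 of them overlapped a PSC peak in replicate 1, and the others in neither list. The regions at the other Hox genes each overlapped a PSC peak in both replicates.

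Among PRC1 genes, regions lay at Psc, Su(z)2, Pc and ph-p, 4 of the 7 on the list, and at 0 of the 11 PRC2 and PhoRC genes. Su(z)2, the paralogue of Psc, rose by 1.94 ± 0.23 (adjusted p 1.27e-14) per the authors' deposited Pc table, and by 3.51 ± 0.09 in their ph table. Psc was at 0.20 ± 0.16 (adjusted p 0.568) per the authors' deposited Pc table and rose by 1.59 ± 0.07 (adjusted p 1.53e-118) in their ph table. These neighbouring genes had wide regions, 4989 bp at Psc (chr2R:12977025-12982013) and 4603 bp at Su(z)2 (chr2R:12993565-12998167), each found with both proteins in both replicates. Pc was lower by 0.14 ± 0.07 in ph RNAi (adjusted p 0.0453), from the authors' deposited table.

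Outside the Hox genes, the largest increases in the Pc mutant included a pigment gene and several transcription factor genes. The largest was y, a pigment gene, at 7.18 ± 0.33 (adjusted p 2.76e-101) per the authors' deposited table; the labels used here do not give the genotype of the libraries at y. Sox15, a Sox factor, rose by 6.60 ± 0.50 (adjusted p 4.84e-36) per the authors' deposited table. CG15269 rose by 5.66 ± 0.97 (adjusted p 5.20e-07) and cad, the posterior homeodomain factor, by 5.31 ± 0.83 (adjusted p 1.77e-08) per the authors' deposited table. The gap gene Kr rose by 3.96 ± 0.42, the muscle identity gene tey by 3.85 ± 0.55 and the wing selector vg by 3.58 ± 0.37 per the authors' deposited table, with adjusted p of 1.60e-18, 7.67e-10 and 2.86e-19. The cytokine gene upd1, the ligand of the JAK/STAT pathway, rose by 2.38 ± 0.25 (adjusted p 2.54e-18) per the authors' deposited table. Of the 7 wing and dorsal selector genes with a region, 4 were higher in the authors' deposited Pc table, and their median log2 fold change was 0.59; the counts over the list of 13 were 6 higher and 0 lower.

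The largest decreases in the Pc mutant were smaller than these increases and included genes of eye development. Cyp6a22, a cytochrome P450, fell by 2.28 ± 0.71 (adjusted p 0.0178, mean count 65.1) per the authors' deposited table. The lipoprotein gene apolpp, a fat body marker, fell by 1.96 ± 0.51 (adjusted p 0.00246) per the authors' deposited table, in which 5 of the 10 fat body markers, apolpp among them, and 13 of the 17 muscle markers were lower. Pc itself, at a region of 314 bp, is also among the 10 largest decreases. The proneural gene ato, which founds the R8 photoreceptor, fell by 1.35 ± 0.29 (adjusted p 1.04e-04) and ro, a homeobox gene of the furrow, by 1.29 ± 0.37 (adjusted p 0.00846) per the authors' deposited table. Optix fell by 1.11 ± 0.23 and toy by 1.07 ± 0.21 per the authors' deposited table; both are retinal determination factors. Esp, tinc and peb were the other decreases of the 10, at -1.25 ± 0.29, -1.06 ± 0.17 and -1.04 ± 0.19 per the authors' deposited table.

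Most eye genes at the regions fell. Of the 7 retinal determination genes with a region (dac, so, Optix, eyg, ato, ey, toy), 6 were lower in the authors' deposited Pc table, with a median log2 fold change of -0.86, against 9 lower and the same median over all 13 genes of the list. Of the 8 photoreceptor and cone cell genes with a region, 6 were lower in the authors' deposited Pc table, with a median of -0.50, against 15 lower and a median of -0.74 over the list of 20. In ph RNAi, 6 of the 7 and 8 of the 8 were lower, with medians of -2.40 and -2.53 per the authors' deposited table; over the lists 11 of 13 and 20 of 20 were lower. In bulk discs, fewer cells of a type and less RNA per cell cannot be told apart. In ph RNAi all 12 haemocyte markers were also lower, with a median of -2.90 per the authors' deposited table, and the part of cell composition in these values was not tested.

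**Figure D3:**
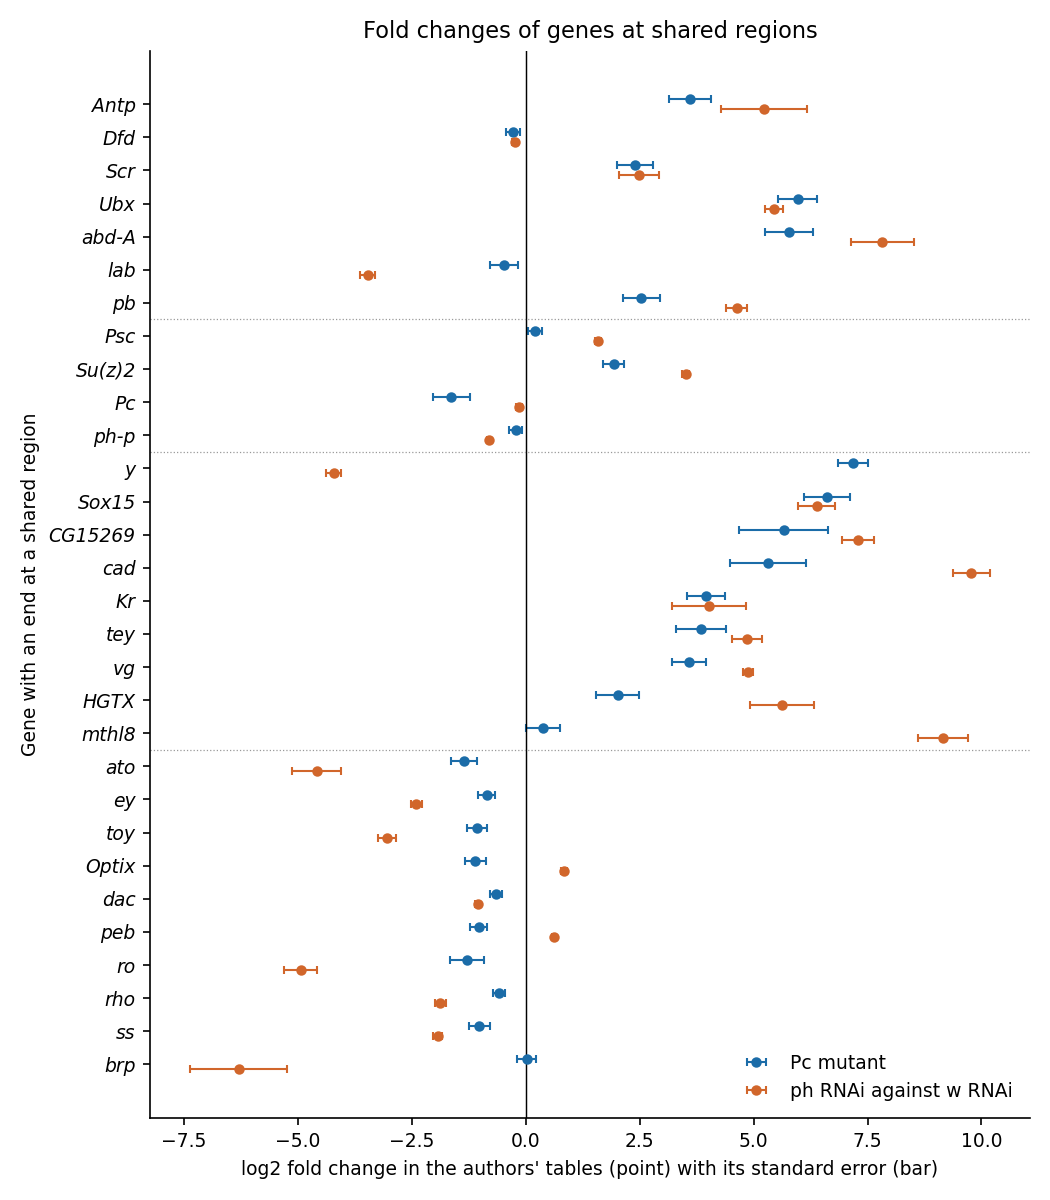
The authors' log2 fold changes (x axis, points) with their standard errors (bars) in the Pc mutant and in ph RNAi against w RNAi, for 30 genes at shared regions (y axis). From top to bottom the blocks hold Hox genes, PRC1 genes, genes with large increases, and eye and neuronal genes; Ubx, abd-A, Sox15 and cad lie far right in both, and y lies on opposite sides.

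A larger share of the genes in dense Su(z)12 neighbourhoods was called higher. The regions were grouped, after the fold changes had been seen and hence without a test, by the number of Su(z)12 summits within 10 kb of the PSC summit. A single Su(z)12 summit was near 499 regions (55.9%), 2 to 4 were near 266 (29.8%), and 5 or more near 128 (14.3%). Of the 71 tested genes at the densest regions, 21 (29.6%) were higher per the authors' deposited Pc table, against 24 of 717 (3.35%) at single ones, 10 of 289 (3.46%) in between and 3.64% of all genes. Called lower in the same table were 4 of 71 (5.63%), 55 of 717 (7.67%) and 19 of 289 (6.57%). At least 2-fold higher were 18 of 71, 5 of 717 and 1 of 289 genes in the authors' deposited Pc table, so the dense class held 18 of the 24 genes past that size. The corresponding numbers at least 2-fold higher per the authors' deposited ph table were 26 of 71 (36.6%), 22 of 705 (3.12%) and 14 of 292 (4.79%), against 5.05% of all genes. Genes of the dense class also fell in ph RNAi, in a share near that of all genes. Lower per the authors' deposited table were 25 of 71 (35.2%), against 310 of 705 (44.0%) at single regions and 34.9% of all genes. The share at least 2-fold lower was larger in the dense class than in the other classes of regions, but near that of all genes. It was 15 of 71, against 113 of 705 at single regions, 37 of 292 in between and 19.4% of all genes. The median mean count in the ph table was 631 in the dense class and 2307 at single regions, and its part in these shares was not tested.

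The 21 genes in the dense class that rose in the Pc mutant were the 5 Hox genes, nub, en, vg, Su(z)2, Sox15, rib, Kr, exex, HGTX, tey, grn, cad, zfh2, upd1, CG15269 and AhcyL2. The POU factor gene nub, of the wing, was at 2.31 ± 0.33 in the Pc mutant and 2.74 ± 0.21 in ph RNAi per the authors' deposited tables. HGTX, an NK homeobox gene, was at 2.02 ± 0.47 and 5.62 ± 0.69 per the authors' deposited tables. The motor neuron factor exex was at 2.34 in the Pc mutant and -4.71 in ph RNAi in the authors' deposited tables. Without the Hox genes, 25.0% of the tested genes of the dense class were higher in the Pc mutant.

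The dense class differed in other measures too. Its PSC peaks had a median width of 1043.5 bp, against 359 bp at single regions, and a median PSC fold of 2.33, against 2.58. Both proteins were found in both replicates at 56.3% of the dense regions and at 34.5% of the single ones. Its genes had a median mean count of 564 per the authors' deposited Pc table, against 1805 at single regions. By mean count in the authors' deposited Pc table, 0 of 5 dense genes under 50 were higher, 5 of 13 from 50 to 300, 11 of 30 from 300 to 1000, 4 of 15 from 1000 to 3000 and 1 of 8 over 3000. Over all genes tested, 2.20%, 3.58%, 4.13%, 4.27% and 4.34% were higher in the same ranges. With a PSC fold of at least 3 required, 2 genes (11.1%) of the dense class were higher.

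**Figure D4:**
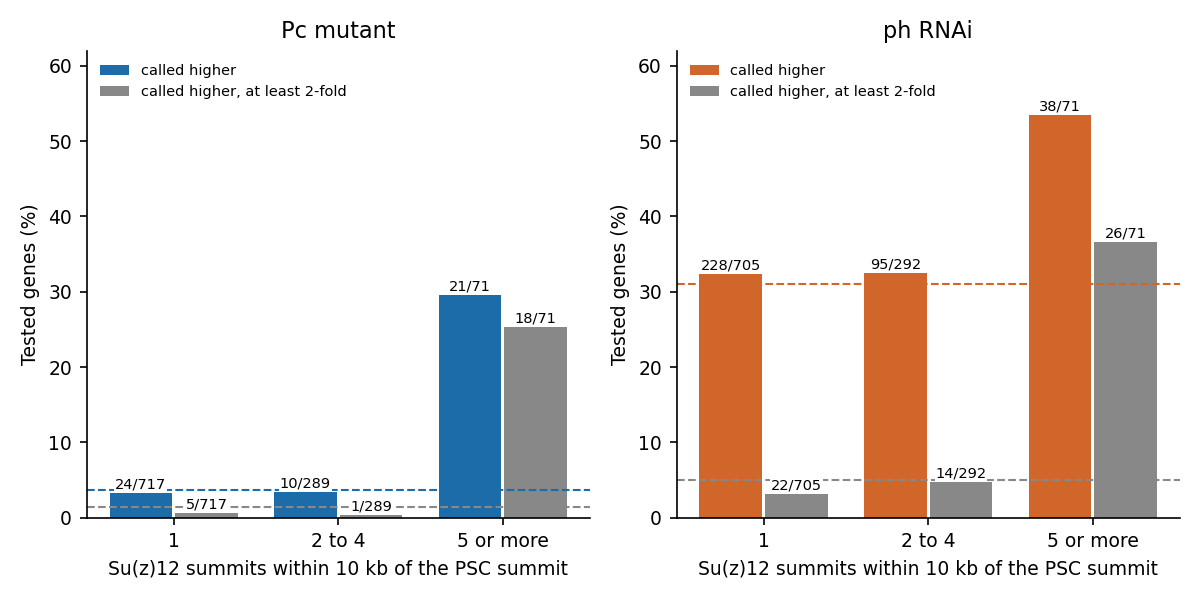
Percentage of tested genes called higher (coloured) and called at least 2-fold higher (grey) in the Pc mutant (left) and in ph RNAi (right), for regions with 1, 2 to 4 and 5 or more Su(z)12 summits within 10 kb (x axis), with counts above the bars. Dashed lines are the same shares over all genes tested; in the Pc mutant 21 of 71 genes of the densest class were higher, and 24 of 717 at single regions.

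Calls were also counted by peak width and by PSC fold. In the fifth of genes with the widest PSC peak (654 to 8366 bp), 26 of 214 (12.1%) were higher in the authors' deposited Pc table and 17 at least 2-fold, against 2.33% to 4.61% higher in the narrower groups. In the fifth with the highest PSC fold (3.19 to 4.89), 4 of 214 (1.87%) were higher in the authors' deposited Pc table, against 4.19% to 7.44% in the groups of lower fold. Over all genes 3.64% were higher in that table. In the authors' deposited ph table the fifth of highest fold had 31.0% higher, against 32.6% to 36.4% in the others and 31.1% of all genes. The fifth with the widest peaks had 39.3% higher in ph RNAi, against 27.1% to 35.8% in the others. Among the genes at the top regions by fold, Map205 was at 0.09 ± 0.09 (adjusted p 0.663), Clamp at -0.05 ± 0.09 (adjusted p 0.886) and Cndp2 at 0.06 ± 0.15 (adjusted p 0.935) per the authors' deposited Pc table. Per their ph table Map205 was higher at 0.56 ± 0.04 (adjusted p 9.91e-39). Clamp and Cndp2 were lower there, at -0.08 ± 0.03 (adjusted p 0.0201) and -0.42 ± 0.11 (adjusted p 3.87e-04). In ph RNAi, mthl8, a gene of the Methuselah receptor family, rose by 9.16 ± 0.55 (adjusted p 3.00e-60) and D2hgdh by 2.89 ± 0.08 per the authors' deposited table, while both were near 0 in the Pc mutant (0.38 ± 0.37 and -0.04 ± 0.16).

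In ph RNAi most genes of the whole table changed, and so did those at the regions. There were 1068 tested genes at the regions, of which 361 (33.8%) were higher in the authors' deposited table, against 31.1% of all 11009 genes, and 473 (44.3%) were lower, against 34.9%. Among well-expressed genes the share higher was below that of all genes. It was 40.8% against 45.0% at mean counts of 300 to 1000, and 38.6% against 48.4% from 1000 to 3000. Over 3000 it was 39.0% against 46.3%. At lower counts it was 9.70% against 5.50% under 50 and 18.8% against 18.5% from 50 to 300. At least 2-fold higher were 62 genes (5.81%, against 5.05%) and at least 2-fold lower 165 (15.4%, against 19.4%), from the authors' deposited table. The median log2 fold change was -0.08 at the regions and -0.06 over all genes in the authors' deposited table. The median of the ribosomal protein genes was 0.38, so that recentring on them moved the split of calls at the regions from 43.3% higher to 16.3% higher; directions of small changes are relative to the authors' scaling.

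The largest increase in ph RNAi was at the homeodomain factor gene cad. It rose by 9.77 ± 0.41 (adjusted p 4.06e-125) per the authors' deposited table, from regions 163 and 176 bp from its ends. Next after mthl8, abd-A rose by 7.82 ± 0.69 (adjusted p 5.92e-29), CG15269 by 7.29 ± 0.35 and Sox15 by 6.39 ± 0.40 per the authors' deposited table. Ubx rose by 5.44 ± 0.20, Antp by 5.22 ± 0.94, vg by 4.87 ± 0.10 and tey by 4.85 ± 0.33 per the authors' deposited table. The heart factor gene tin rose by 4.81 ± 0.31 (adjusted p 4.79e-52) per the authors' deposited ph table and was at -0.55 ± 0.58 (adjusted p 0.742) in their Pc table. Of the 7 Hox genes, 5 were higher and 2, lab at -3.47 ± 0.16 and Dfd at -0.24 ± 0.06, were lower in the authors' deposited ph table. Over all 8, with Abd-B, 6 were higher and 2 lower. The signalling gene wg, a Wnt ligand, rose by 1.62 ± 0.04, and hh, the Hedgehog ligand, fell by 0.99 ± 0.06 per the authors' deposited ph table.

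The 10 largest decreases in ph RNAi included genes for synaptic proteins. All 10 stood at regions with at most 2 Su(z)12 summits within 10 kb, as most genes did. Of the 1068 tested genes at the regions, 705 were at single regions, 292 at those with 2 to 4 summits and 71 in the dense class. The gene brp, which encodes the active zone protein Bruchpilot, fell by 6.29 ± 1.07 (adjusted p 9.83e-09) per the authors' deposited table, in which CG1888, whose end lies at the same region, was at -0.15 ± 0.08 (adjusted p 0.0707). The acetylcholine receptor subunit gene nAChRalpha7 was at -6.01 ± 0.93, the kainate receptor gene Ekar at -6.02 ± 0.85 and dpr1, of the Dpr immunoglobulin family, at -6.15 ± 0.43 per the authors' deposited table. The others were CG2269 at -6.44 ± 0.69, meru at -6.33 ± 0.39, CG46301 at -5.78 ± 0.96, GstZ2 at -5.74 ± 0.89, nolo at -5.74 ± 1.14 and CG14186 at -5.60 ± 0.39 per the authors' deposited table. All 10 were called lower, and their mean counts ranged from 108 at CG14186 to 4587 at brp in the authors' deposited table. The Netrin receptor genes unc-5 and fra were lower, at -3.15 ± 0.12 and -1.11 ± 0.05, as was the ligand gene NetB, at -1.88 ± 0.07, in the authors' deposited table; of the 7 axon guidance genes with a region 6 were lower, and 14 of 15 over the list.

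The effects of the Pc mutant and of ph RNAi were compared per gene by a z test of the difference of the fold changes, with Benjamini-Hochberg adjustment over all 10588 genes with both values. The test assumes that the tables share no library. Of the 1057 genes at the regions with both values, 558 differed, 230 with ph RNAi above and 328 below; over all genes 49.8% differed. Among the large increases, the difference between ph RNAi and the Pc mutant was -0.21 for Sox15 (adjusted p 0.812), -0.53 for Ubx (adjusted p 0.365), 0.06 for Kr (adjusted p 0.964) and 0.09 for Scr (adjusted p 0.917). It was 4.46 for cad (adjusted p 5.94e-06), 2.04 for abd-A (adjusted p 0.0397) and 1.30 for vg (adjusted p 0.0022), each higher in ph RNAi.

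At the regions, fewer genes were called in opposite directions than in the same one. By the authors' deposited tables, 30 genes at the regions were higher in both and 63 lower in both. Higher in the Pc mutant and lower in ph RNAi were 17 genes, and 6 were the reverse. The same joint counts over all genes were not made. With 66.0% of all tested genes called in ph RNAi, these counts cannot be read as a trait of the genes at the regions. The labels do not say whether the tables share control libraries. The largest difference among the named genes was y, which fell by 4.21 ± 0.16 in ph RNAi in the authors' deposited table, a difference of -11.39 from the Pc mutant (adjusted p 2.55e-206). The dorsal selector ap was at 2.61 ± 0.26 in the Pc mutant and -2.09 ± 0.18 in ph RNAi in the authors' deposited tables, with a difference of -4.70 (adjusted p 9.99e-47). The Iroquois gene ara was at 0.59 ± 0.15 and -0.94 ± 0.07 per the authors' deposited tables, with a difference of -1.53 (adjusted p 1.03e-19). Optix, lower in the Pc mutant, rose by 0.84 ± 0.07 in ph RNAi in the authors' deposited table (difference 1.95, adjusted p 2.11e-15), and peb, a zinc finger gene of the eye, rose by 0.61 ± 0.04 (difference 1.65, adjusted p 3.60e-16). These genes were named for their opposite signs after the values were seen, except y, ara, Optix and peb, which the naming rule gave.

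Regions shared by several genes allowed a comparison within a region. Of 328 regions with more than 1 gene tested in the Pc mutant, 14 had a gene that was higher. In 11 of these 1 gene was higher and the others were not called, and in 3 another gene was lower. A gene was lower at 52 of the 328 regions, several genes were lower at 0, and no gene was called at 265. Over all genes tested, 3.64% were higher and 6.24% lower. Those are shares per gene and cannot be set against shares of regions that hold several genes each. The region between dpr2 and Tmem214 gave log2 fold changes of 3.72 and -0.00 per the authors' deposited Pc table, and the region between the cytochrome c genes Cyt-c-d and Cyt-c-p had 2.22 and 0.35. In ph RNAi, with far more calls over the whole table, 189 of 324 such regions had a gene that was higher, 39 had several, and 115 had 1 higher and another lower. Of these regions, 234 had a gene that was lower, 66 had several, and 16 had no call.

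The remaining gene lists filled in the picture. Of 88 cytoplasmic ribosomal protein genes 34 had a region; 33 of these were higher in the authors' deposited ph table, with a median of 0.39 (RpL17 at 0.39 ± 0.02, RpS4 at 0.40 ± 0.02, RpL7A at 0.46 ± 0.02), as were 79 of the 84 tested over the list, a direction that vanishes by construction when the table is centred on that list. A single one of the 34, RpS12, was higher per the authors' deposited Pc table. Of 13 appendage identity genes with a region, 5 were lower and 3 higher in the authors' deposited Pc table, and 10 lower and 2 higher in their ph table; over the list of 20 there were 8 lower and 4 higher (Pc) and 15 lower and 3 higher (ph). Sp1, a zinc finger factor of leg growth, rose by 0.92 ± 0.27 and 2.43 ± 0.08, and ss, the antennal selector, fell by 1.02 ± 0.23 and 1.93 ± 0.10, in the authors' deposited Pc and ph tables. Of 13 segmentation genes with a region, 3 were higher and 2 lower in the authors' deposited Pc table, and 6 and 6 in their ph table; over the list of 26 there were 7 higher and 4 lower (Pc) and 10 and 11 (ph). Of 8 NK homeobox genes 2 were higher in the authors' deposited Pc table, while 4 were higher and 4 lower in their ph table, with lbl at 1.74 ± 0.05; over the list of 11 there were 2 higher and 0 lower (Pc) and 5 and 6 (ph). The T-box genes H15 and mid fell by 3.66 ± 0.15 and 2.06 ± 0.12 per the authors' deposited ph table, in which Doc1 rose by 0.78 ± 0.07. Of 8 cell cycle genes with a region 4 were higher and 3 lower in the authors' deposited ph table, against 17 and 4 over the list of 24. The increases were led by the replication helicase gene Mcm7 at 1.54 ± 0.07 and the cyclin gene CycB at 0.45 ± 0.03. A region lay at 2 of the 13 proneural and Snail family genes, at 3 of the 19 ligand genes and at 0 of the 11 E(spl) genes and of the 17 muscle markers.

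**Figure D5:**
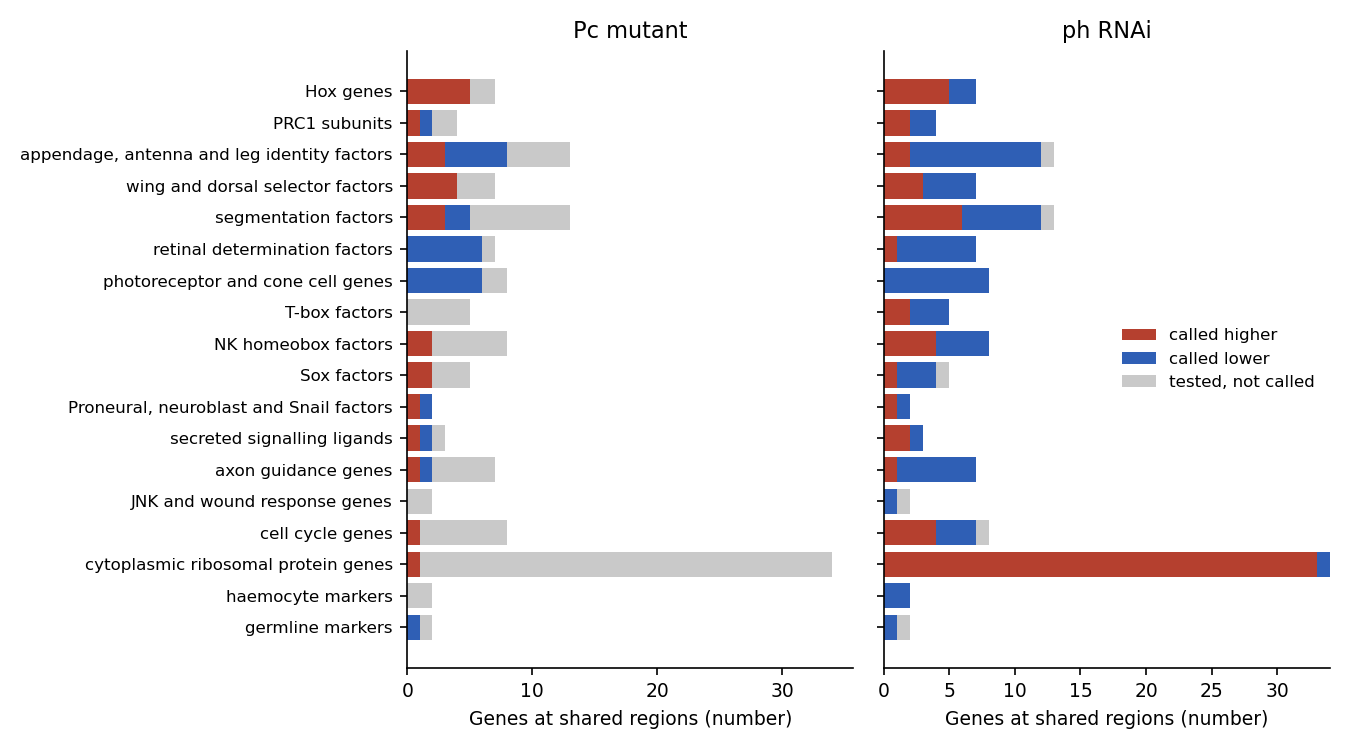
Number of genes at shared regions (x axis) that were called higher, called lower or tested and not called, for each gene list with more than 1 such gene (y axis), in the Pc mutant (left) and in ph RNAi (right). Of the 7 Hox genes 5 are higher in both, and of the 34 ribosomal protein genes 33 are higher in ph RNAi and 1 in the Pc mutant.

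Chromosome 4, the small arm rich in heterochromatin, stood apart in ph RNAi. Of its 48 tested genes at regions 36 were lower in the authors' deposited ph table, and 77.9% of all genes tested on that arm were lower. Of the same 48, 4 were lower and 1 was higher per the authors' deposited Pc table, against 6 and 1 of all 78 tested on the arm. On 3L, the arm that carries Pc and the FRT2A site, 13 of the 201 tested genes at regions were higher and 11 lower in the authors' deposited Pc table. Over all 2297 genes tested on the arm, 119 (5.18%) were higher and 187 (8.14%) lower. More genes were thus higher than lower at the regions of 3L, and fewer over the whole arm.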

How the data were processed

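Per the submitters' processing notes, reads were handled with Bowtie2, SAMtools and MACS2 2.1.1.20160309 (ChIP-seq) and with STAR, HTSeq and DESeq2 1.22.1 (RNA-seq) on dm6; no settings are stated there. The authors deposited peak lists per replicate and for merged replicates, with fold enrichment (a ratio over local background), -log10 p and q and a score that is 10 times the -log10 q. The authors' deposited expression tables hold (per the file headers) log2 fold changes with standard errors, a Wald statistic (score), the p-value and adjusted p-value, and the mean normalised count, a signal averaged over libraries; the depth of each library is unknown, so no counting interval was computed. Libraries were stranded per the labels' protocols, and whether counting used strand is not stated.

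Peaks on the 6 arms were placed against RefSeq genes of Release 6 (dm6), used as a table without strand; 12771 of 12785 and 11763 of 11771 table genes were located. Coordinates are 1-based. A gene was called where the authors' adjusted p was under 0.05, with DESeq2's adjustment over the whole table. Named genes were the 10 largest changes each way per table with a mean count of at least 50, genes at the 10 strongest PSC regions, all Hox and PRC1 genes, up to 3 called genes per list and genes next to the 1000 bp limit; others were named after their values were seen. The members and the 24 gene lists were chosen with earlier results of these data known. Analyses used Python 3.11.15, numpy 2.4.6, pandas 2.3.3 and scipy 1.17.1, and the overlap and z test code was tested on simulated data. Alternatives were the overlap, the window, replicate lists, peak thresholds, gene classes, call thresholds and 2 centrings; neighbourhood settings and leaving out arms were added after seeing the data.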

Additional observations from a re-analysis of the deposited data

How the results depend on the processing

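Main values were 893 regions, 1361 genes, 55 higher and 78 lower in the Pc mutant, 361 higher and 473 lower in ph RNAi, 558 genes that differed between the tables, and 21 (Pc) and 38 (ph) higher genes in dense Su(z)12 neighbourhoods. A requirement that the PSC peak and a single Su(z)12 peak each overlap a peak in both replicates left 367 regions and 563 genes, with 28 higher and 43 lower (Pc), 147 higher and 199 lower (ph), 230 that differed, and 4 and 6 in dense neighbourhoods. With a PSC fold of at least 3 there were 241 regions, 379 genes, 7 and 16 (Pc), 97 and 142 (ph), 147 that differed, and 2 and 12 in dense neighbourhoods. The nearest gene end alone left 869 genes and 51 lower (Pc). At least 2-fold, counts were 24 and 12 (Pc), 62 and 165 (ph) and 199 that differed, and at an adjusted p under 0.01 there were 36 higher (Pc). Centred on the ribosomal protein median, 141 were higher and 726 lower (ph). Dense neighbourhoods gave 13 and 24 higher genes with 50% reciprocal overlap, 7 and 10 with a -log10 q of at least 10 for both proteins, 13 and 21 within 5 kb, 9 and 14 with at least 8 summits, and 60 (ph) with at least 3. The causes were not tested, except that stricter rules leave fewer regions.

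With the lists of a single replicate the ranges were 483 to 612 regions, 744 to 903 genes, 33 to 48 higher and 51 to 59 lower (Pc), 206 to 242 higher and 257 to 311 lower (ph), 308 to 370 that differed, and 11 to 15 (Pc) and 17 to 23 (ph) in dense neighbourhoods. The share of tested genes in dense neighbourhoods that were higher in the Pc mutant ranged from 11.1% to 66.7% over all alternatives. These extremes rest on few genes: 2 higher with a PSC fold of at least 3, and 4 higher with peaks in both replicates. The replicate and -log10 q rules also removed Su(z)12 peaks, so the dense class itself changed under them. Without 3L or without chromosome 4, all counts stayed within 1.5 times. Of the named genes called in ph RNAi, 4 no longer passed when centred on the median of all genes and 6 when centred on the ribosomal protein median; no named gene that was called changed sign. No paired analysis was possible because the tables hold no values per sample. The planned use of gene starts alone and the motif search were not run, since the annotation used has no strand or sequence. By mean count, 1 of 95 genes at regions under 50 (1.05%) was higher in the Pc mutant, 6 of 111 (5.41%) from 50 to 300 and 23 of 193 (11.9%) from 300 to 1000. From 1000 to 3000 it was 13 of 325 (4.00%), and over 3000 it was 12 of 353 (3.40%). Over all genes tested the shares in the same ranges were 2.20%, 3.58%, 4.13%, 4.27% and 4.34%. The share at the regions was above that of all genes only from 50 to 1000, and it did not rise steadily with depth.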
